A study of Mus musculus with 12 samples.

Results

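Peaks of m1A, adenosine that carries a methyl group at its N1 atom, were examined in 10 genes that control mTORC1 or start autophagy: Ulk1, Ulk2, Ddit4, Tsc1, Tsc2, Mtor, Rptor, Deptor, Rictor and Sik3. A peak belonged to a gene when its summit lay inside the gene's RefSeq span on GRCm38. By that rule the 10 genes held 20 of the 13572 regions in the series, built from 32 of 23413 peaks. A region is a stretch where peaks of the 6 lists share at least 1 bp. The genes were chosen by their listed peaks, with the calls and fold enrichments of these same 6 lists known. Which libraries called them, and how strongly, is therefore described and not tested.

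The KO group had 3 antibody pull-downs from the dorsal striatum (caudate putamen) of adult male Tet1 fl/fl mice given AAV-Cre-EGFP at that site, and its genotype is labelled Tet1 delta/delta. The control group had 3 pull-downs from Tet1 fl/fl mice given AAV-EGFP, so both groups carried the floxed allele, the injection and EGFP. Tissue was taken 2 weeks after injection, and each pull-down had its own input. The labels used here do not name the promoter that drives Cre, the share of cells it reached, or whether the numbered libraries came from separate animals. In bulk tissue, fewer cells of a type and less RNA per cell cannot be told apart.

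mTORC1 is a protein kinase complex on the lysosome that promotes protein synthesis when amino acids and growth factors are plentiful. The TSC complex switches it off by acting on the small GTPase Rheb, and energy or oxygen stress feeds into TSC through AMPK and Ddit4. Active mTORC1 phosphorylates the Ulk kinases and so holds back the first step of autophagy, the recycling of cell contents through the lysosome. In neurons this balance governs dendrite growth and local protein synthesis at synapses.

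After filtering, the peak caller used 1235247, 2508102 and 1336328 pull-down tags in KO 1, 2 and 3, and 459332, 1097292 and 864206 in controls 1, 2 and 3. The 3 KO totals all exceeded the 3 control totals. Control 1 differed from the rest in its duplicate setting, since all duplicate tags were kept there and at most 1 per position elsewhere, and its peaks had a median pileup of 4 tags, against 17 to 19 tags in the other libraries. Tet1 had no peak in any list, which is no check of the deletion. Of 12 medium spiny neuron markers, the defining striatal cell type, 4, 8 and 6 had a peak in KO 1, 2 and 3, and 4, 8 and 8 in controls 1, 2 and 3. Of 6 microglial markers 0 to 2 had a peak in KO libraries and 0 to 1 in controls, of 8 astrocyte markers 1 to 2 in KO and 0 to 2 in control, and of 7 oligodendrocyte markers 4 to 5 in KO and 1 to 6 in control, the lowest in control 1. The part of cell type makeup in the results was not tested.

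In these genes, 6 had a summit within 1000 bp downstream of a listed transcription start, the end of the transcript where the cap and the start codon lie. The starts of 4 of them are printed here because the DNA of the peaks themselves was not used. Each sequence is from RefSeq on GRCm38.p6, 5′ to 3′ on the gene's strand, with 120 bases before the outermost annotated start in lower case and the first 30 bases of the gene in capitals.
Ulk1, chr5:110810091-110810240, minus strand: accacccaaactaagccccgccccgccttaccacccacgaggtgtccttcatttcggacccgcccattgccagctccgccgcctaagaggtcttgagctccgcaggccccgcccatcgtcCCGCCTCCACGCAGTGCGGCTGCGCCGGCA
Mtor, chr4:148448462-148448611, plus strand: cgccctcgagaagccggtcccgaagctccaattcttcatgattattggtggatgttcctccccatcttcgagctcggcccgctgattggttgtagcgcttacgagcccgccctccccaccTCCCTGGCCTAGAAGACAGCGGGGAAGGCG
Rictor, chr15:6708229-6708378, plus strand: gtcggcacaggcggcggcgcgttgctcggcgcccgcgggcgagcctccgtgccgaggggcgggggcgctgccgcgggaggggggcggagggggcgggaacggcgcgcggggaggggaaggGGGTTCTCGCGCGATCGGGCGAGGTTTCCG
Sik3, chr9:46012700-46012849, plus strand: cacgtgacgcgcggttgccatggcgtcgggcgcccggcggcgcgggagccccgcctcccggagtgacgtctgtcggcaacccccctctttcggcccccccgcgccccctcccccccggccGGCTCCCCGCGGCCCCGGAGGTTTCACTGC
The nearest m1A region began 59 bp past the first printed capital in Mtor, 116 bp in Ulk1, 224 bp in Sik3 and 843 bp in Rictor. In the 300-base windows around the listed starts, GC content was 68% for Ulk1, 74.7% for Ulk2, 69% for Ddit4, 57.3% for Tsc1, 65% for Tsc2, 56.7% for Mtor, 41.7% for Rptor, 78.3% for Rictor and 73.7% for Sik3. The median over 21263 windows of protein-coding genes was 56.3%, so Mtor and Tsc1 lay close to it, Rptor below it and the other 6 above it. The GC box GGGCGG, searched on both strands, occurred in 5 of the 9 windows, with 5 copies in Ulk1, and in 46.2% of all windows.

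Ulk1 and Ddit4, one that starts autophagy and one that restrains mTORC1, each carried a single m1A region, listed in KO 1, 2 and 3 and absent from the control lists. Deptor, which binds and inhibits mTOR, carried one more such region. No region of the 10 genes was called in control alone, meaning in controls 1, 2 and 3 without any KO library, and Sik3, a kinase of the AMPK family, had the one region called in all 6. These are 3 of 20 regions called in KO alone, 0 of 20 in control alone and 1 of 20 in all 6. Over all regions the shares were 1.41%, 0.796% and 2.96%. The KO share of the 10 genes cannot be read against that background, because the calls entered the choice of genes. With 1 library left out at a time, the share of all regions called in KO alone ran from 1.75% to 5.32% (5.32% without KO 2, 3.64% without KO 3, 2.63% without KO 1, 2.23% without control 2). Ulk1, Ddit4 and Deptor kept their calls each time, but leaving out a library could not change them. A region listed in KO 1, 2 and 3 and in no control stays called in KO alone by the libraries that remain.

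**Figure D1:**
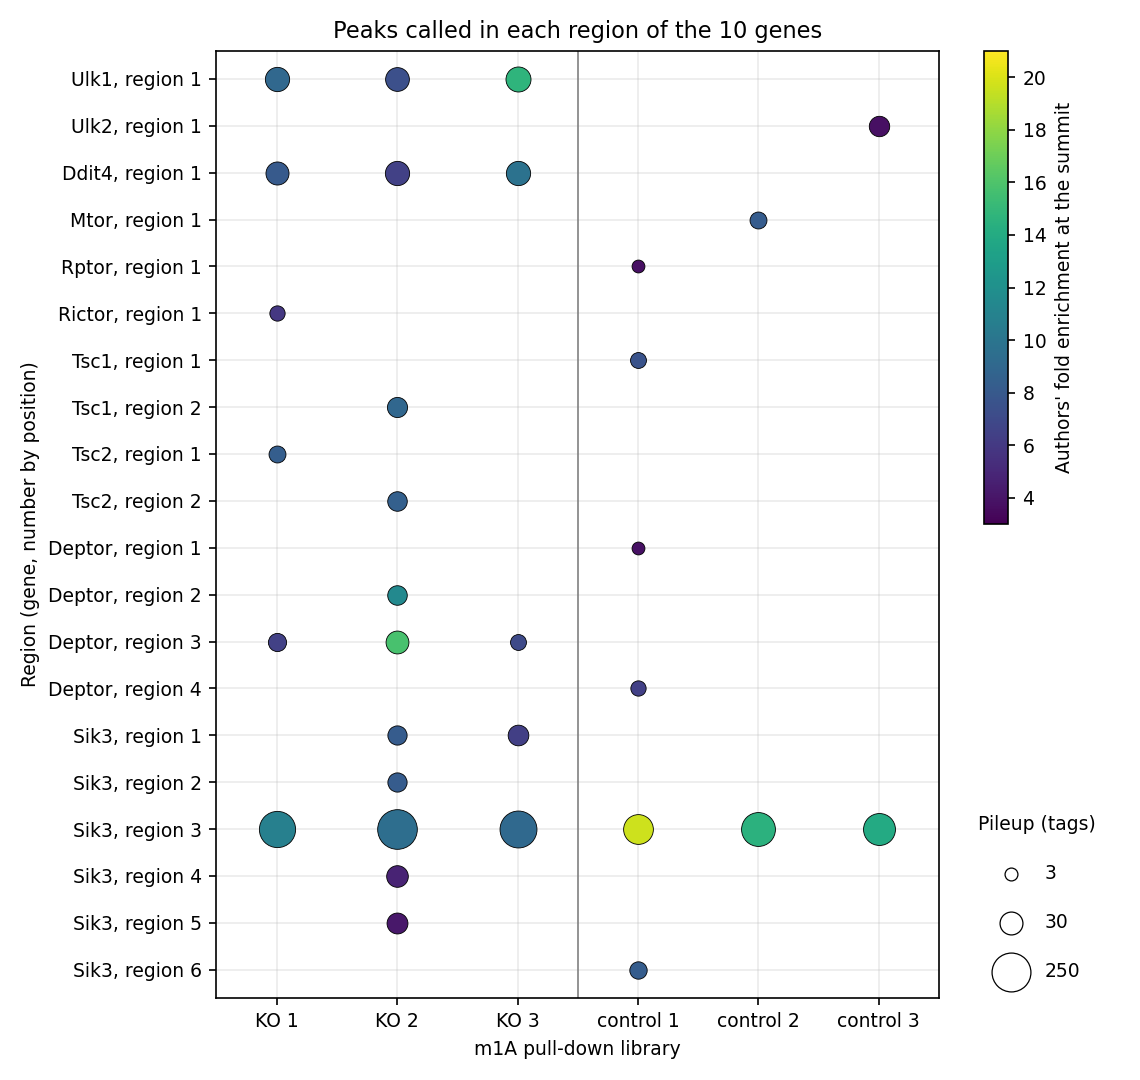
Peaks in the 20 regions of the 10 genes (rows) in each of the 6 pull-down libraries (columns, KO left of control); the colour is the authors' fold enrichment, the area grows with the pileup in tags, and an empty crossing means that no peak was listed. The regions of Ulk1 and Ddit4 and region 3 of Deptor are filled in all 3 KO columns alone, region 3 of Sik3 is filled in all 6, and 15 regions are filled in 1 column.

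Ulk1 is the kinase that receives the mTORC1 and AMPK signals and sets off autophagosome formation. Its region lay on chromosome 5 from 110809807 to 110810004, with the median summit 180 bp downstream of the listed start, and the summits of the 3 KO libraries fell within 5 bp of each other. Pileup at the summit was 38, 35 and 43 tags in KO 1, 2 and 3, and no peak was listed in controls 1, 2 and 3. Fold enrichment over the local background was 9.03, 7.42 and 14.7 in KO 1, 2 and 3, or 10.4 ± 3.85 (SD, n = 3). Pileup was alike in the 3 libraries and did not grow with depth, so its depth-scaled pileup (pileup per 1000000 tags used) was 30.8, 14.0 and 32.2, with KO 2, the deepest library, lowest. Within its own list, the Ulk1 peak exceeded 75.2%, 53.6% and 93.7% of peaks by fold enrichment. The −log10 q was 22.9, 18.1 and 37.2. Of the 192 regions called in KO alone, 5 had a higher value in their weakest library than Ulk1, and 67 had a higher median fold enrichment.

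The peak lists do not hold the coverage of the controls at Ulk1, and only the scale of the KO signal can be set beside them. Scaled to the tags of control 2, the KO pileups came to 15.3 to 35.3 tags over a background of 1.63 to 2.95 tags, where control 2 listed 551 peaks with pileups of 10 tags or more. Scaled to control 3 they came to 12.1 to 27.8 tags, where that list had 492 peaks with pileups from 10 tags. In control 1 they came to 6.41 to 14.8 tags, and the lowest pileup listed over such a background was 7 tags. The scaled KO signal lay above the lowest listed pileups of controls 2 and 3, and its low end lay under that of control 1. The median pileup of such peaks was 21 tags in control 2 and 19 tags in control 3, inside the scaled KO ranges. The scaling, also used for Ddit4 and Deptor below, takes pileup to grow with tags, which Ulk1 pileup did not do across the KO libraries. The part of depth in the missing calls was not tested.

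Ulk2, the close relative of Ulk1 that shares its role in autophagy, had 1 peak. It was in control 3, on chromosome 11 from 61854633 to 61854917, with the summit 272 bp downstream of the listed start. Pileup was 19 tags over a background of 4.40 tags, which gave a fold enrichment of 3.71, above only 3.89% of the peaks of that list. Both Ulk genes were thus called close to their starts, Ulk1 in 3 KO libraries and Ulk2 in 1 control library.

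Ddit4, also known as REDD1, is induced by hypoxia, glucocorticoids and DNA damage and turns mTORC1 off through TSC. It is the shortest of the 10 genes, with a span of 2096 bp. Its region lay on chromosome 10 from 59949883 to 59950110, 1753 bp downstream of the start and 342 bp before the end of the span, on the 3′ side of the transcript. Pileup was 31, 38 and 38 tags in KO 1, 2 and 3, with no peak listed in controls 1, 2 and 3. Fold enrichment was 8.03, 6.46 and 9.81 in KO 1, 2 and 3 (8.10 ± 1.67, SD, n = 3). The −log10 q was 17.1, 17.0 and 24.5. KO 2 had the lowest fold and the highest background, 5.03 tags, beside 2.99 and 2.98 tags in KO 1 and 3. Depth-scaled pileup was 25.1, 15.2 and 28.4 in KO 1, 2 and 3, the same order as for Ulk1. The peaks ranked above 62.8%, 36.8% and 75.7% of their lists by fold enrichment. Among the 192 regions called in KO alone, 9 had a higher −log10 q in their weakest library, and 96 had a higher median fold. Scaled to controls 2 and 3 the KO pileups came to 16.6 to 31.2 and 13.1 to 24.6 tags, beside lowest listed pileups of 12 and 10 tags over such backgrounds, and in control 1 to 6.96 to 13.1 tags beside 8 tags.

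The TSC complex, through which Ddit4 acts, was called at no site in more than 1 library. Tsc1, its scaffold subunit (hamartin), had a region 213 bp downstream of the start in control 1 with a pileup of 7 tags and a fold enrichment of 7.62, and another 41514 bp downstream in KO 2 with 18 tags and a fold of 8.97. Tsc2, the GTPase-activating subunit (tuberin), had a region 19224 bp downstream of its start in KO 1 with 9 tags and a fold of 8.30. A second Tsc2 region 7474 bp downstream was called in KO 2 with 16 tags and a fold of 8.47. Of these 4 regions 3 were in KO libraries and 1 in a control library, and none repeated within its group.

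Mtor encodes the kinase itself. Its only peak was in control 2, on chromosome 4 from 148448641 to 148448817, 203 bp downstream of the start, with a pileup of 9 tags over a background of 0.227 tags and a fold enrichment of 8.15. Rptor encodes raptor, the mTORC1 scaffold that picks substrates, and was called in control 1 alone with 3 tags, the lowest pileup of that list, and a fold of 3.72. With a −log10 q of 2.42, Rptor was the member call nearest to the authors' limit of q = 0.01. Rictor encodes the matching scaffold of mTORC2, the complex that phosphorylates AKT, and was called in KO 1 alone with 6 tags, a fold of 5.91 and a summit 883 bp downstream of the start. The kinase and both scaffolds thus had 1 peak each, of 3 to 9 tags. No summit lay within 2000 bp beyond the span of any of the 10 genes.

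Deptor carried 4 regions. The region called in KO alone lay on chromosome 15 from 55251911 to 55252389, 139719 bp from the lower end of a span of 146957 bp. Pileup there was 12, 30 and 7 tags in KO 1, 2 and 3, and no peak was listed in controls 1, 2 and 3. Fold enrichment was 6.51, 15.8 and 7.04 (9.78 ± 5.21, SD, n = 3), and the KO 2 peak, 479 bp long, spanned those of KO 1 (269 bp) and KO 3 (165 bp). The 3 libraries differed more here than at Ulk1 or Ddit4, with summits spread over 118 bp. Among the 192 regions called in KO alone, 171 had a higher pileup in their weakest library. Scaled to controls 1, 2 and 3, the lowest KO pileup came to 2.41, 5.75 and 4.53 tags, beside lowest listed pileups of 3, 4 and 4 tags over such backgrounds.

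Control 1 had a peak of its own close by in Deptor. It ran from 55252991 to 55253160, past the KO region, which ended at 55252389, with 6 tags and a fold enrichment of 6.43. A further control 1 peak of 3 tags (fold 3.84) lay 626 bp from the lower end of the Deptor span and also inside the overlapping non-coding gene Gm9920. KO 2 alone had a region with 16 tags and a fold of 11.5.

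Sik3 is a salt-inducible kinase that LKB1 activates and that phosphorylates the CREB coactivators of the CRTC family and class IIa histone deacetylases. In mice it is known for setting sleep need. It held 6 regions, the most of the 10 genes, over a span of 211375 bp. The region called in all 6 libraries lay on chromosome 9 from 46056688 to 46057250, 44091 bp downstream of the start and also inside the non-coding gene Gm46110, and all 6 summits fell within 15 bp. Pileup was 189, 271 and 204 tags in KO 1, 2 and 3 and 86, 144 and 114 tags in controls 1, 2 and 3. The KO pileups all lay above the control pileups, as the KO tag totals do. Of the 402 regions called in all 6 libraries, 1 had a higher −log10 q in its weakest library and 12 had a higher lowest pileup.

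Relative to local background the order turned. Fold enrichment at this Sik3 site was 10.8, 9.40 and 9.11 in KO 1, 2 and 3 (9.77 ± 0.904, SD, n = 3) and 19.7, 14.5 and 13.9 in controls 1, 2 and 3 (16.0 ± 3.16), so every KO value lay below every control value, and the ratio of the means was 0.610. Such a separation, with fold lower in every KO library, held for 16.2% of the 402 shared regions, and the reverse for 2.74%. Across these 402 regions the median ratio of KO over control fold was 0.905, and 58 regions had a lower ratio than Sik3. Depth-scaled pileup overlapped between the groups, with 153, 108 and 153 in KO and 187, 131 and 132 in control, while it was lower in every KO library in 50.7% of the shared regions and higher in 2.24%. For this pileup the ratio of the means was 0.919, above the median of 0.613 over the 402 regions, and 332 regions had a lower ratio. The background that the fold implies, scaled to depth in the same way, was 13.4, 11.1 and 16.1 in KO 1, 2 and 3 and 7.46, 8.19 and 8.41 in controls 1, 2 and 3. Every KO background lay above every control background, as in 13.9% of the 402 regions, with the reverse in 22.4%. The same held for the unscaled background, as in 37.8% of them, with the reverse in 0.498%, and for the unscaled pileup, as in 19.4%. This background is computed from the pileup and the fold. With depth-scaled pileup overlapping between the groups, the higher KO background and the lower KO fold are therefore 1 result, seen from either side. The ratio of KO over control means was 1.69 for the depth-scaled background. Its median over the 402 regions was 0.881, and 328 regions had a lower ratio. By rank within its list, the peak stood above 84.5%, 76.1% and 71.0% of peaks in KO 1, 2 and 3 and above 97.7%, 93.0% and 92.5% in controls 1, 2 and 3, a separation that 22.1% of the shared regions had, with the reverse in 1.99%. For this rank the ratio of the KO mean to the control mean was 0.817, close to the median of 0.835 over the 402 regions. A lower ratio was found in 187 of them.

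**Figure D2:**
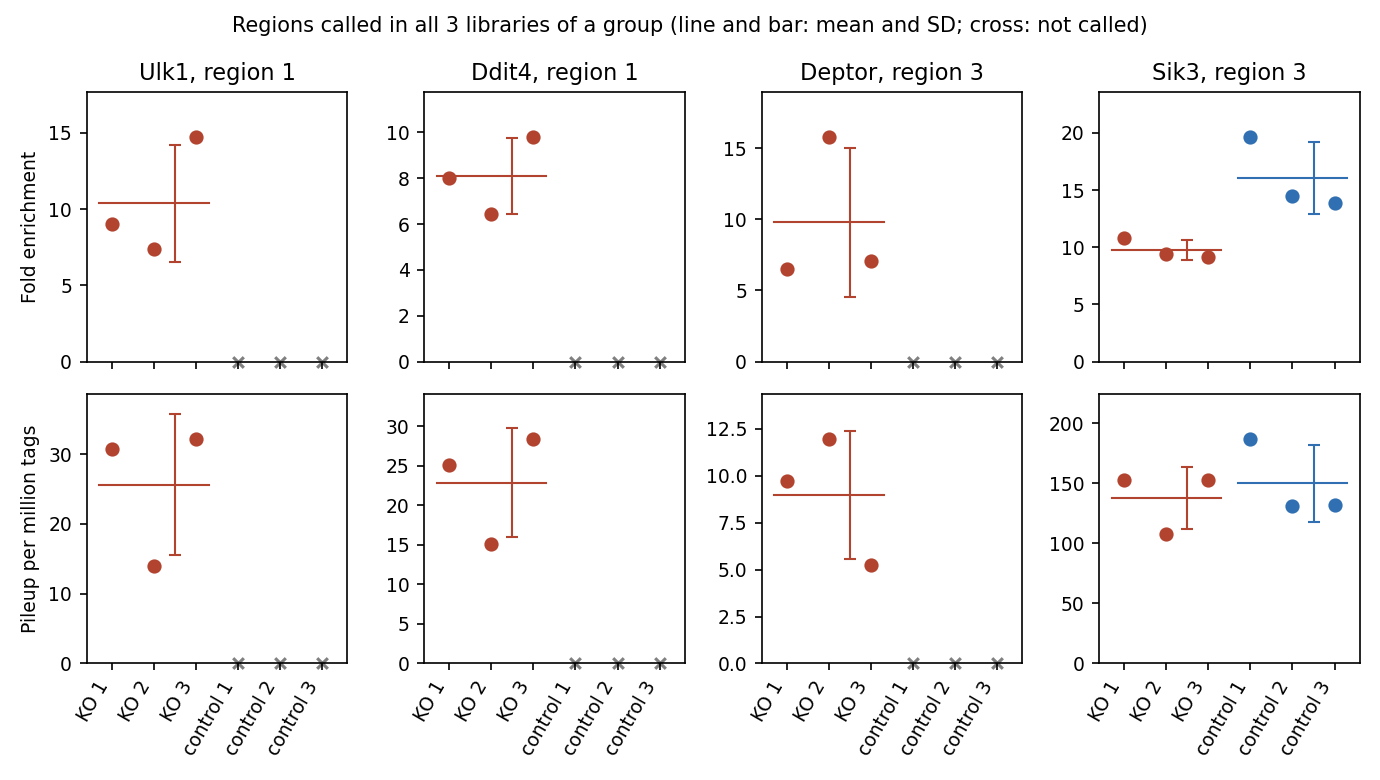
Fold enrichment (top) and pileup per 1000000 tags used (bottom) of the 4 regions called in all 3 libraries of a group, with KO libraries in red left of control libraries in blue; lines and bars are the mean and SD of 3 libraries, and a grey cross marks a library with no listed peak, which is no measured 0. Ulk1, Ddit4 and Deptor have values in KO alone, and at Sik3 fold enrichment is lower in every KO library while depth-scaled pileup overlaps.

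Of the other 5 Sik3 regions, 4 were called in KO 2, one of them also in KO 3, and 1 in control 1. The one nearest the start, 291 bp downstream, was called in KO 2 with 15 tags (fold 8.15) and in KO 3 with 20 tags (fold 6.33). KO 2 alone listed regions 820, 120088 and 124934 bp downstream with folds of 8.15, 4.69 and 4.13. Control 1 alone listed one 817 bp before the end of the span with 10 tags and a fold of 8.25. Sik3 thus showed a start-proximal peak in KO 2 and KO 3 but not in KO 1, and a shared internal peak in all 6 libraries.

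Most calls in the 10 genes came from a single library, as in the series at large. Of the 20 regions, 15 were called in 1 library, beside 69.0% of all regions, and 11 of those 15 came from KO 2 (6) and control 1 (5). These 2 libraries also gave 70.4% of single-library regions in the series. In total 12 of the 20 regions were called in KO libraries and no control library (51.7% of all regions) and 7 in control libraries and no KO library (27.5%). By gene, Ulk1, Ddit4, Rictor and Tsc2 had peaks in KO libraries alone, Ulk2, Mtor and Rptor in control libraries alone, and Tsc1, Deptor and Sik3 in both. These are 4 and 3 of 10 genes, near the 32.4% and 21.6% of all 5746 protein-coding genes with a peak. Without control 1 and KO 2 there were 9 regions. Those of Ulk1, Ddit4, Deptor and Sik3 described above kept their calls, which leaving out libraries could not change.

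The place of each summit in its gene was among the values that the rule for members reads, so it is given as a description. Of the 16 regions in the 9 members with a listed start, 7 had their summit within 1000 bp downstream: Ulk1 at 180 bp, Mtor at 203 bp, Tsc1 at 213 bp, Ulk2 at 272 bp, Sik3 at 291 and 820 bp and Rictor at 883 bp. Over all 9322 regions in protein-coding genes with a listed start the share was 24.1%. The share was 16.4% of the regions called in KO alone, 44.1% of those called in control alone and 45.3% of those called in all 6 libraries. Ulk1 was one of 19 start-proximal regions among 116 called in KO alone, while Ddit4 and the shared Sik3 region lay farther in. The median distance was 4614 bp in the members, whose 16 regions all lay downstream. Over all regions it was 10658 bp, with summits upstream of the start counted as negative distances. Exons and untranslated regions were not used here.

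**Figure D3:**
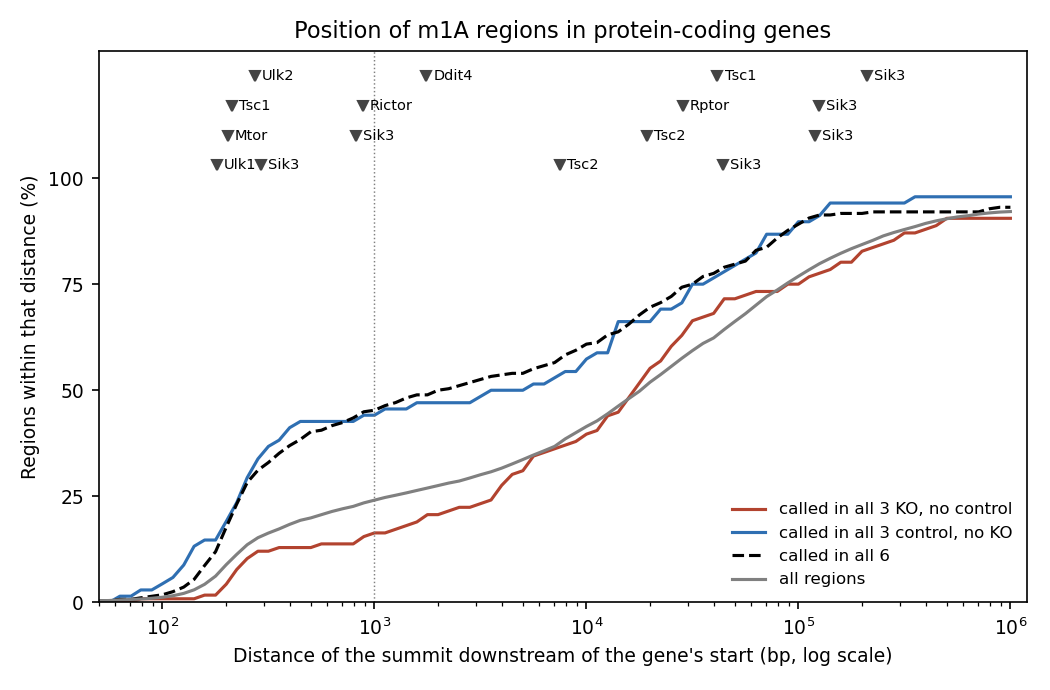
Share of regions (vertical axis, percent) whose summit lies within a given distance downstream of the listed start of a protein-coding gene (horizontal axis, bp, log scale), for regions called in KO alone, in control alone, in all 6 and overall; triangles mark the 16 regions of the members at their distance. Lines end below 100% because some summits lie upstream of the listed start. At the dotted line at 1000 bp the lines stand at 16.4%, 44.1%, 45.3% and 24.1%, and 7 triangles lie to its left.

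Among the other regions called in KO alone, those most like Ulk1 by rank of fold enrichment within the 3 KO lists were in Clstn3, Ubn2 and Dctn1, with summed differences of 15.4 to 21.7 percentile points over the 3 libraries. Those most like Ddit4 were in Sobp, Epb41l3 and Trmt5 (22.5 to 26.2 points). Those most like the shared Sik3 region over 6 libraries were in Lrrc4b, Lmf1 and Ptges3 (29.0 to 31.6 points).

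The rest of the pathway was read from 132 genes in 8 lists that leave out the 10 members. Of these, 71 (53.8%) had a peak in at least 1 library, beside 26.2% of 21900 protein-coding genes. The median span was 33.9 kb in the 132 genes and 17.1 kb in all protein-coding genes, and the part of gene length and transcript level in this share was not tested. Of the 71, 21 were called in KO libraries and no control and 15 in control libraries and no KO, beside the same 32.4% and 21.6%. In KO 1, 2 and 3 the lists had 32, 34 and 29 genes with a peak, and in controls 1, 2 and 3 31, 28 and 24, so the groups overlapped.

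Within the 132 genes, 3 of 138 regions were called in KO alone, 1 in control alone and 4 in all 6. Over all regions the shares were 1.41%, 0.796% and 2.96%, so these counts lay near the background. At gene level 1 of the 71 was called in KO alone (Grb10; 1.74% of protein-coding genes with a peak), 0 the other way (0.818%) and 4 in all 6 (8.77%). Crtc1, a CREB coactivator that SIK kinases hold in the cytoplasm, had a KO region 218 bp downstream of its start with folds of 10.2, 9.91 and 9.64 in KO 1, 2 and 3, while a separate Crtc1 site was called in control 2. Grb10, an adaptor that mTORC1 phosphorylates and that damps insulin signalling, had folds of 10.0, 15.1 and 5.70 in KO 1, 2 and 3. Gabarapl1, which is coupled to the autophagosome membrane, had folds of 3.81, 2.19 and 2.34 in KO 1, 2 and 3 at a site 318 bp downstream of its start, and was called elsewhere in controls 2 and 3. These 3 sites were absent from all control lists.

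The site called in control alone was in Eef2k, the kinase that slows translation elongation and that mTORC1 signalling restrains. It lay on chromosome 7 from 120903157 to 120903525, with folds of 6.59, 16.3 and 14.6 in controls 1, 2 and 3 and no peak in KO 1, 2 and 3. Another Eef2k site was called in all 6 libraries, with folds of 4.51, 5.40 and 11.3 in KO 1, 2 and 3 and 9.60, 10.3 and 9.38 in controls 1, 2 and 3. Gsk3b, a kinase that acts on Tsc2, Ywhab, a phosphoprotein-binding adaptor, and Mark4, a microtubule-affinity kinase of the AMPK family, were also called at a shared site in all 6. Folds there were 4.52 to 10.2 for Gsk3b, 3.91 to 9.04 for Ywhab and 4.54 to 16.7 for Mark4.

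By list, SIK and AMPK-related kinases with their targets had a peak most often, 12 of 15 genes, followed by upstream PI3K, AKT, LKB1 and AMPK genes with 13 of 20 and mTORC1 targets with 8 of 13. The mTOR complex subunits other than members had 4 of 7, autophagosome conjugation and receptor genes 12 of 21, and lysosomal amino acid sensing genes 13 of 30. Autophagy start genes other than the Ulk members had 7 of 20, and TSC-Rheb genes 2 of 6. Of all protein-coding genes 26.2% had a peak. Median gene spans of the 8 lists, in the order just given, were 57.4, 53.7, 33.5, 43.2, 29.7, 20.1, 31.8 and 18.6 kb. The median span of all protein-coding genes was 17.1 kb, and the part of gene length in this order was not tested. For mTORC1 targets 3, 5 and 4 genes had a peak in KO 1, 2 and 3 and 1, 3 and 3 in controls 1, 2 and 3. For autophagy start genes 3, 1 and 1 had a peak in KO and 4, 3 and 2 in control. The groups overlapped or touched on every list.

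**Figure D4:**
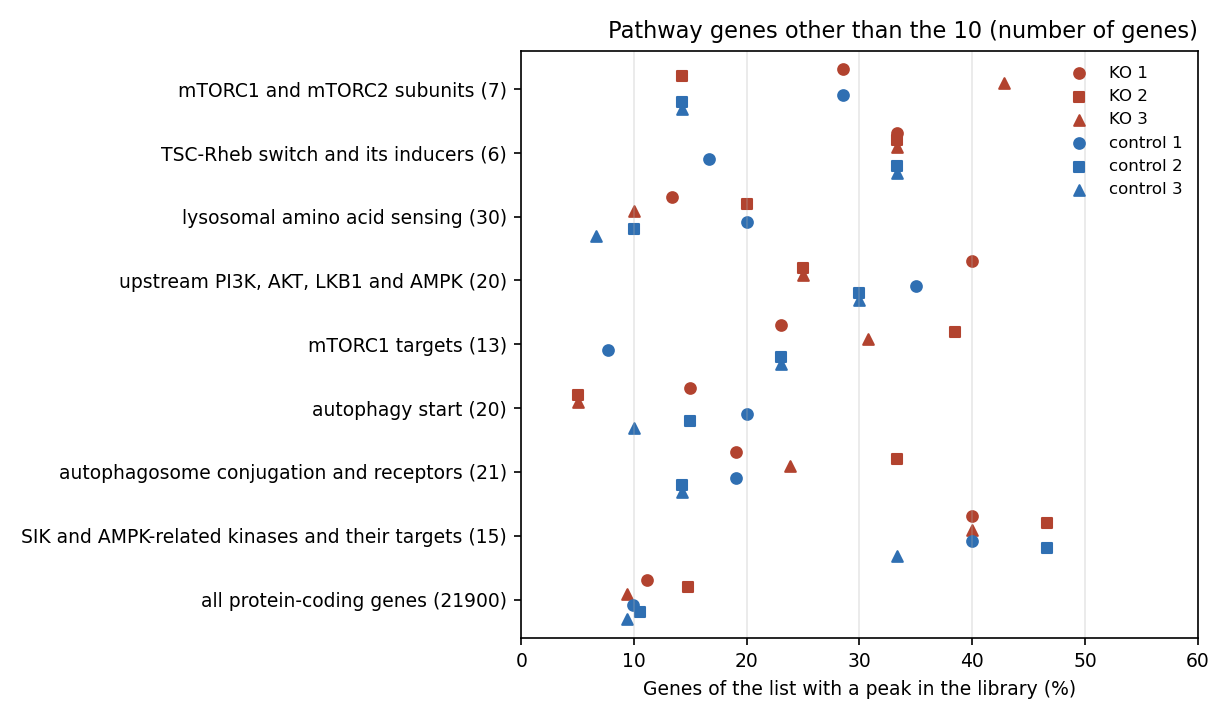
Share of the genes of each pathway list with a peak in a library (horizontal axis, percent), with the number of genes in brackets; red marks are KO 1, 2 and 3, drawn above the blue marks of controls 1, 2 and 3. The bottom row gives all 21900 protein-coding genes, at 9.41% to 14.8% in KO and 9.38% to 10.5% in control, and the KO and control marks overlap or touch on every list.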

How the data were processed

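The members and gene lists were chosen with earlier results of these data known. Per the submitters' processing notes, cutadapt 2.8, HISAT2 2.1.0, MACS2 2.2.6 and GRCm38 were used. Per the file headers, each pull-down was called against its own input at q = 0.01, with all duplicates kept in control 1 and at most 1 tag per position elsewhere. The deposited lists give the authors' pileup (a signal, the tag coverage at the summit), −log10 of the p-value and q-value, and fold enrichment (a ratio). These are values of single peaks, and none was tested between libraries. The implied background was computed as (pileup + 1)/fold − 1. Its lowest value in each list matched tags times fragment length over the genome size of the headers, 0.108 tags in KO 1 for example. Depth-scaled values were divided by the tags used and given per 1000000. Labels do not state separate animals. Peaks were placed by summit in spans of a GRCm38.p6 RefSeq table, leaving out summits in over 3 genes. Starts came from the RefSeq promoter table, which had 9 of the 10 members. All list symbols matched. The named genes were the members, the pathway genes with a region called in all 3 libraries of 1 group alone or in all 6, and the 3 regions with the same libraries and nearest fold ranks to the region of highest median fold in Ulk1, Ddit4 and Sik3 (in Sik3, the one called in all 6). Merging was tested on simulated peaks. Python 3.11.15, numpy 2.4.6 and pandas 2.3.3 were used. No p-value was computed.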

Additional observations from a re-analysis of the deposited data

How the results depend on the processing

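A missing peak means that none was listed at that depth, and counts near the limit of 3 tags, as in Rptor, rest on few molecules. The calls of Ulk1, Ddit4 and Deptor in KO alone were kept with −log10 q limits of 5, with fold enrichments of at least 4, with lists of equal length, with an overlap of 50% of the shorter peak, with gaps of up to 100 bp merged, with any overlap with the gene span, and with summits in more than 1 gene left out. That last setting left 0 member regions called in all libraries, because the shared Sik3 site also lies in Gm46110. Several of these settings could not change the calls of Ulk1, Ddit4 and Deptor. Their lowest −log10 q was 6.50 and their lowest fold 6.46, above both limits, and a stricter limit adds no control peak. Their summits lie in no other gene, so neither gene-span setting could remove them. With lists of equal length, 1.22% of all regions were called in control alone. Without control 1 and KO 2 together, the members had 9 regions, and of all regions 7.22% were called in KO alone, 8.12% in control alone and 14.1% in all libraries, since fewer libraries had to be met. Leaving out 1 library at a time gave 14 to 20 member regions, 3 to 4 in KO alone, 0 in control alone, 1 in all libraries and 9 to 10 genes with a peak. The fourth, without KO 1, was the Sik3 region near the start. The other 3, and the 1 in all libraries, could not be lost by leaving out a library. Of all regions, 1.75% to 5.32% were then called in KO alone, 1.04% to 3.61% in control alone and 3.16% to 6.4% in all libraries, the highest of both coming without control 1. Without KO 2 the share in control alone was 1.6% and that in all libraries 5.3%. Outside these 1-library settings, 58 values stayed within 1.5 times the reported one and 6, all given above, did not. No paired analysis was possible because the reported values come from no test, the members having been chosen by these calls, and the labels do not say that a number marks a shared animal, batch or day.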

Other observations

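Some pathway genes outside the 10 had uneven calls across the libraries. They were singled out after their values were seen. Atg4a, a protease that processes the ubiquitin-like proteins of the autophagosome, had 6 regions, all in KO 2, with fold enrichments of 5.40 to 20.0. Prkag2, a regulatory subunit of AMPK, had 9 regions, 7 in KO 2, 0 in KO 1 and KO 3, 2 in control 1 and 0 in controls 2 and 3. Over the whole series, KO 2 gave 47.7% of the single-library regions and control 1 gave 22.7%. Mark2, a relative of Mark4, was called in KO 3 alone among the KO libraries and in controls 1, 2 and 3, with folds of 5.26 to 11.9.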
